A study of Mus musculus with 36 samples.

Results

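The chemokine ligands that T cells make, Ccl3, Ccl4, Ccl5 and Xcl1, were followed in an ATAC-seq study of mouse spleen CD4 T cells. A peak belonged to them if its midpoint lay nearest to a protein-coding transcription start site (TSS) of one of the 4 genes, in the GENCODE annotation of GRCm39, or if it overlapped their gene bodies. This rule found 37 of the 71509 consensus peaks, 6 at Ccl3, 3 at Ccl4, 8 at Ccl5 and 20 at Xcl1, and all 37 passed the filter on low counts. No measured value entered the rule.

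Chemokines are small secreted proteins that draw leukocytes along a gradient by binding G protein-coupled receptors. Ccl3 and Ccl4 (MIP-1α and MIP-1β) and Ccl5 (RANTES) are CC chemokines that attract T cells and monocytes, and Ccl3 and Ccl5 bind the receptor Ccr1. Xcl1 (lymphotactin) binds Xcr1, the receptor of cross-presenting dendritic cells. Effector T cells and NK cells are the lymphoid sources for which these ligands are best known, and the genes are little used in naive CD4 T cells. ATAC-seq reads where the transposase Tn5 can insert into DNA, so a level here is the accessibility of a regulatory region and not the amount of a transcript.

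The study compared 2 mouse lines, each with a wild-type (WT) and a knockout (KO) genotype. In the HP1a line (HP1α, gene Cbx5) the floxed allele was deleted in the germ line by CMV-cre, so every cell of the donor lacked it. In the HP1g line (HP1γ, gene Cbx3) Cd4-cre deleted the allele in T cells, and the WT animals carried the floxed allele without Cre. Donors were 6- to 12-week-old, sex-matched littermates on a mixed 129/Sv and C57BL/6 background. The study states that it used male mice, in view of its sequencing. HP1 proteins bind methylated histone H3 lysine 9 and take part in heterochromatin silencing. Each genotype was measured in 3 conditions, with 3 libraries in each of the 12 groups. Naive cells were isolated from the spleen, by negative selection, and not transferred. Tconv were conventional CD4 T cells recovered 3 weeks after transfer into lethally irradiated B6 hosts together with a mixture of syngeneic and semi-allogeneic B6D2F1 bone marrow, and Tconv with Treg were the same with ex vivo expanded regulatory T cells added. After CD4 enrichment the transferred cells were sorted as CD4+, CD45.2+, H-2Kb+ and Vβ6+ and negative for CD45.1, H-2Kd and Thy1.1, and thus stand for the donor-reactive fraction. Thy1.1 marked the added Treg, which came from Foxp3-Thy1.1 mice. The study left out 3 HP1a libraries for low signal (WT with Treg replicate 3, KO with Treg replicates 2 and 3), which leaves 2 WT and 1 KO library in that condition. Below, "kept" means without these 3. The labels do not say which libraries came from separate animals or hosts, so p-values measure the spread between libraries, which may be partly technical.

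Reads in peaks ran from 1.49 M to 96.8 M per library (median 54.8 M), and the 3 libraries left out held 3.20 M to 7.12 M. The shallowest kept library was HP1a WT with Treg replicate 2, at 1.49 M. In the HP1g naive KO group replicates 1 and 2 held 33.9 M and 32.4 M reads and replicate 3 held 82.4 M, against 70.5 M to 90.3 M in the WT group. All 4 CD4 T cell markers (Cd4, Cd3d, Cd3e, Zbtb7b) had a peak over a TSS. Neither NK cell marker had one, and Cd8a had none. The Cd8b1 peak lay at 29.5 to 35.9 CPM in naive and 2.66 to 10.5 CPM in transferred libraries. Of the B cell markers Pax5 alone had a peak over its TSS, at 1.94 to 3.68 CPM in naive libraries and 13.3 to 17.1 CPM in HP1a WT with Treg, libraries left out included. The peaks over a TSS of the targeted genes did not differ by genotype past the threshold. At Cbx5 (2 peaks) the log2 fold changes ran from -0.11 to 0.13 over the 3 conditions, and at Cbx3 (1 peak) from 0.02 to 0.11. Accessibility there is no check of the deletion. The peak over the Cd4 TSS, at the gene whose promoter drives the Cre of the HP1g line, held 511 to 729.6 CPM in the 9 HP1g KO libraries and 80.3 to 119 CPM in the 9 HP1g WT libraries, so these 2 sets of labels were separated without overlap.

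Ccl5, Ccl3 and Ccl4 all lie on chromosome 11, and Ccl3 and Ccl4 lie closer to each other than to Ccl5. In GRCm39 Ccl5 (ENSMUSG00000035042.4) spans 83416602 to 83425942 on the minus strand and has 2 annotated protein-coding TSSs, at 83421345 and, upstream of it, at 83425942. Ccl3 (ENSMUSG00000000982.7) spans 83538670 to 83540191 on the minus strand and Ccl4 (ENSMUSG00000018930.5) 83553383 to 83555509 on the plus strand. Xcl1 (ENSMUSG00000026573.8) is on chromosome 1, 164759213 to 164763096, on the minus strand. The 4 genes have 5 peaks over a TSS, since each Ccl5 TSS has its own, and these 5 peaks also cover exons and UTRs. Of the remaining peaks, the ones 2.7 kb downstream of the Ccl5 TSS and 1.5 kb downstream of the Xcl1 TSS were intronic, that 1.0 kb downstream of the Ccl4 TSS covered coding exon, and the others lay between protein-coding genes. Distances of peaks are given from the peak's midpoint to its nearest TSS of the gene.

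Sequences are shown for the promoters of Ccl3 and Xcl1, whose TSS peaks differed between HP1g KO and WT cells in opposite directions, and for the centres of 2 of the 3 distal peaks called between genotypes. All are from GRCm39, written 5′ to 3′ on the minus strand. Capitals mark matches, on either strand, to core motifs of factor families active in T cells: AP-1 (TGANTCA), RUNX (TGTGGT), T-box (AGGTGT) and NFAT (TGGAAA). A match on the other strand appears as its reverse complement. No marked matches overlapped each other.
Ccl3 promoter (chr11:83540192-83540441): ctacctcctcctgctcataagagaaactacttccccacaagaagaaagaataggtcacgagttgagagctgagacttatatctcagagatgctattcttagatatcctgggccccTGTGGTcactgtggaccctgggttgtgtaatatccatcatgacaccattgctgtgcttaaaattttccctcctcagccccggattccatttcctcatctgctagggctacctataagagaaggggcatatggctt
Xcl1 promoter (chr1:164763097-164763346): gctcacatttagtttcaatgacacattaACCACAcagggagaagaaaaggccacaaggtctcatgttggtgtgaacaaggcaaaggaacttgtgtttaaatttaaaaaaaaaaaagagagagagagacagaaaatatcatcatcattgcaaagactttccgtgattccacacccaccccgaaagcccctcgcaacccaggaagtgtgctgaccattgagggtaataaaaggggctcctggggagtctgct
Centre of the Ccl5 peak 5.9 kb upstream (chr11:83431725-83432024): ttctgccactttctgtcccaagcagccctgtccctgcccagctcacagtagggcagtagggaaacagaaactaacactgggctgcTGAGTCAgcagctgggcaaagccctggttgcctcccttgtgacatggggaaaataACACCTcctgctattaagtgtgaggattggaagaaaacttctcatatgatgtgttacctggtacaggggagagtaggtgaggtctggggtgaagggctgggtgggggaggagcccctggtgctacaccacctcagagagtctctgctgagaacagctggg
Centre of the Xcl1 peak 52.6 kb upstream (chr1:164815595-164815894): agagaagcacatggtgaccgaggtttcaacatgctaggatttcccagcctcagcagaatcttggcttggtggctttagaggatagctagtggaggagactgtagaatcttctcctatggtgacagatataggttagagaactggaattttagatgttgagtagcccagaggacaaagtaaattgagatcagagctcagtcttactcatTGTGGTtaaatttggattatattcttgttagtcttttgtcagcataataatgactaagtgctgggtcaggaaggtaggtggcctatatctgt
Both promoters held 1 RUNX match, the Ccl5 peak 5.9 kb upstream held 1 AP-1 and 1 T-box match, and the Xcl1 peak 52.6 kb upstream held 1 RUNX match. Among 21574 promoters of the same length, 6.14% held the AP-1 letters, 13% RUNX, 12.4% T-box and 19.4% NFAT. Among the centres of 60436 peaks the shares were 12.2%, 28.6%, 17.7% and 23.6%. The centres of the 35 member peaks long enough held them in 3 (8.57%), 13 (37.1%), 10 (28.6%) and 9 (25.7%) cases. A match is a description of these letters only.

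All 5 TSS peaks were near closed in naive cells and open in every kept library after transfer. Values are CPM, reads per M reads in peaks after TMM scaling, in the order of replicates 1 to 3. At the Ccl3 TSS, HP1a WT cells held 0.283, 0.247 and 0.253 CPM when naive, 3.20, 3.99 and 7.39 as Tconv and 12 and 3.21 as Tconv with Treg (2 libraries). HP1a KO cells held 0.229, 0.245 and 0.0802 CPM naive, 2.44, 8.5 and 4.37 as Tconv and 10.3 in the single kept library with Treg. The transferred libraries of the 2 genotypes overlapped. The HP1g WT values at the Ccl3 TSS were 0.417, 0.0950 and 0.269 naive, 4.50, 5.31 and 7.81 Tconv and 7.88, 7.57 and 3.47 Tconv with Treg. The KO values were 1.01, 0.736 and 0.205 naive, 7.47, 10.2 and 12.9 Tconv and 20.8, 8.62 and 15.4 Tconv with Treg. In the condition with Treg every HP1g KO library was above every WT library.

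The Ccl4 TSS peak held 0.718, 0.898 and 0.657 CPM in HP1a WT naive cells, 7.30, 4.17 and 6.11 in Tconv and 11.4 and 4.28 in Tconv with Treg. The HP1a KO values were 1.06, 0.618 and 0.575 CPM naive, 5.81, 14.3 and 9.98 as Tconv and 14.1 in the single kept library with Treg. Genotypes overlapped in naive cells and in Tconv. HP1g WT cells held 1.5, 1.13 and 0.696 CPM naive, 13.7, 12.4 and 19.4 as Tconv and 16.9, 12.8 and 5.19 with Treg. HP1g KO cells held 1.24, 1.67 and 0.914 CPM naive, 14.5, 12.4 and 19.6 as Tconv and 20.9, 11.3 and 16.7 with Treg. Ccl4 thus overlapped between the HP1g genotypes in all 3 conditions.

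Per kb of peak, the upstream Ccl5 TSS had the highest group mean of the 5 TSS peaks in all 8 transferred groups. This peak held 2.05, 1.92 and 1.46 CPM in HP1a WT naive cells, 72.6, 46.1 and 58.6 in Tconv and 40.8 and 19.2 in Tconv with Treg, and the HP1a KO values were 3.57, 2.39 and 1.71 CPM naive, 71.6, 87.3 and 50.7 as Tconv and 66.5 in the single kept library with Treg. HP1g WT cells held 3.55, 2.65 and 2.64 CPM naive, 96.4, 115 and 126 as Tconv and 90.7, 113 and 51.4 with Treg, and HP1g KO cells 5.51, 3.94 and 2.45 CPM naive, 85.1, 89.6 and 122 as Tconv and 109, 76.6 and 95.0 with Treg. Genotypes of both lines overlapped in Tconv. The Ccl5 TSS peak proper held 0.827, 0.370 and 0.581 in HP1a WT naive cells, 17.3, 11.2 and 13.8 in Tconv and 11.1 and 5.35 in Tconv with Treg, and the KO values were 0.557, 0.322 and 0.348 CPM naive, 15.3, 27.0 and 18.8 as Tconv and 23.1 in the single kept library with Treg. HP1g cells held 0.525, 0.380 and 0.586 CPM naive, 23.7, 31.5 and 35.0 as Tconv and 23.6, 26.1 and 20.8 with Treg in WT and 1.33, 1.37 and 0.750 CPM naive, 24.8, 28.2 and 33.4 as Tconv and 25.9, 20.4 and 25.6 with Treg in KO cells. The HP1g KO naive libraries all lay above the WT naive ones here, and the transferred libraries overlapped.

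The Xcl1 TSS peak held 1.24, 1.02 and 0.997 CPM in HP1a WT naive cells, 8.09, 4.82 and 7.25 in Tconv and 8.19 and 3.21 in Tconv with Treg. HP1a KO cells held 1.26, 1.04 and 1.0 CPM naive, 5.35, 7.57 and 6.16 as Tconv and 8.18 in the single kept library with Treg. The 2 genotypes of this line overlapped in naive cells and Tconv. The HP1g WT values were 0.958, 0.529 and 0.757 CPM naive, 7.83, 11.5 and 10.8 as Tconv and 9.84, 10.4 and 6.28 with Treg. The KO values were 1.01, 1.34 and 0.682 CPM naive, 7.16, 7.72 and 7.24 as Tconv and 4.90, 5.09 and 4.92 with Treg. Every HP1g KO library was below every WT library in Tconv and in Tconv with Treg.

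**Figure D1:**
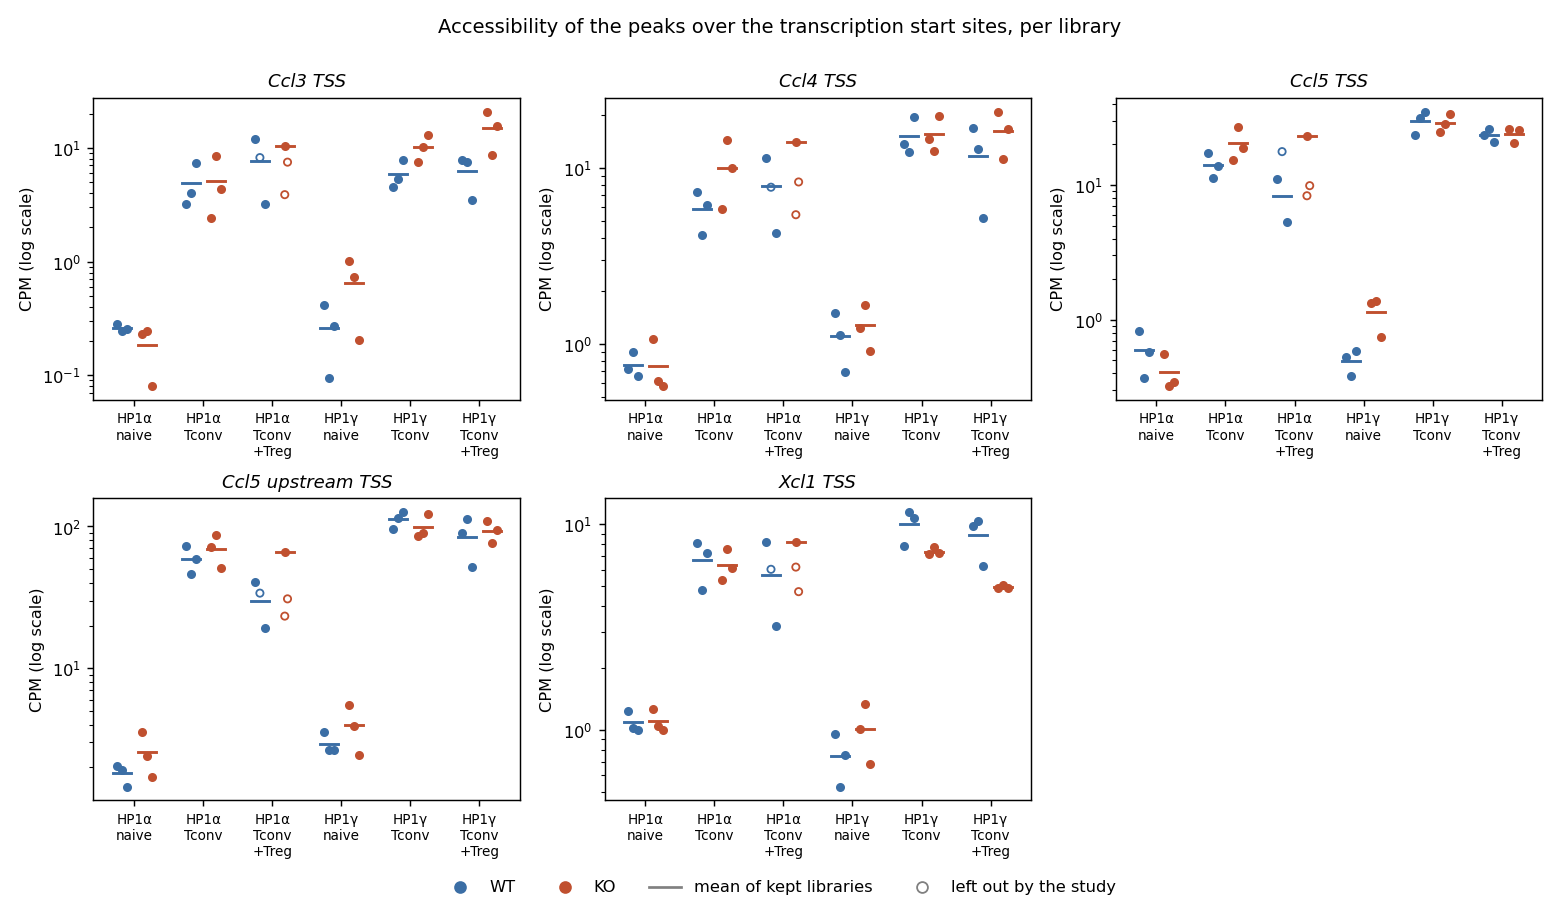
Accessibility (CPM, log axis) of the 5 TSS peaks in each library, by line, genotype and condition. All naive libraries sit below all kept transferred libraries at each peak, as at the Xcl1 TSS, where the HP1g KO libraries with Treg lie between 4.90 and 5.09 CPM and the WT libraries between 6.28 and 10.4 CPM.

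Per kb of peak, the Tconv group means ran from 12.7 to 24.1 CPM per kb at the Ccl5 upstream TSS, 6.47 to 13.8 at the Ccl5 TSS, 6.99 to 11 at the Xcl1 TSS, 4.54 to 12 at the Ccl4 TSS and 3.24 to 6.80 at the Ccl3 TSS. When the 12 group means of a TSS peak were put in order, the 8 transferred groups stood above the 4 naive groups for all 5 peaks. Most neighbours in these orders overlapped in their libraries. The exceptions among transferred groups were the HP1a WT Tconv and HP1a WT with Treg groups at both Ccl5 TSS peaks, in that order, and the HP1a KO with Treg library over HP1g KO Tconv at the Xcl1 TSS. The lowest transferred group did not overlap the highest naive group at any of the 5. Groups of different lines were not tested against each other.

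The first comparison set Tconv against naive cells at the 4 genes, within each line and genotype. Transfer cannot be told apart here from the isolation, since only the Tconv were sorted as Vβ6+ cells. Calls here and below needed an adjusted p under 0.05 in edgeR's quasi-likelihood test over all peaks and an absolute log2 fold change over 1. All 17 peaks of Ccl3, Ccl4 and Ccl5 were called higher in each of the 4 comparisons. Their median log2 fold changes were 3.92 and 4.6 in HP1a WT and KO, and 5.34 and 4.05 in HP1g WT and KO, where the medians over all peaks were -0.03, -0.05, 0.08 and 0.06. With Xcl1 included, 30 of 37 peaks were called in HP1a WT (26 higher), 29 in HP1a KO (24 higher), 33 in HP1g WT (28 higher) and 31 in HP1g KO (27 higher). The background was high: 42.5%, 42.6%, 46.5% and 43.0% of all peaks were called in these comparisons, 24.9%, 23.5%, 24.5% and 22.4% were called higher and 17.5%, 19.0%, 22.0% and 20.6% lower. The members called lower, from 4 to 5 in each, all lay at Xcl1. The peaks over a TSS of the Treg markers Foxp3 and Ikzf2 summed to 185 to 237 CPM in naive and 104 to 154 CPM in Tconv libraries of the HP1a line, and to 169.8 to 207 and 143 to 162 CPM in those of the HP1g line. The Pax5 peak held 1.94 to 3.68 CPM in naive and 4.48 to 6.71 CPM in Tconv libraries, and the Cd8b1 peak 29.5 to 35.9 and 2.66 to 8.67 CPM. None of these ranges overlapped between naive cells and Tconv. The Tconv sort had a CD4+ gate, but no purity is given for these libraries. The part of Treg, B and CD8 T cells in the rises was not tested.

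At the Ccl3 TSS the rise was 3.92 ± 0.65 (log2 fold change ± SE) in HP1a WT, 4.86 ± 0.58 in HP1a KO, 4.56 ± 0.62 in HP1g WT and 4.38 ± 0.56 in HP1g KO. At the Ccl4 TSS it was 3.08 ± 0.43, 3.81 ± 0.37, 3.87 ± 0.40 and 3.83 ± 0.45. The Ccl5 TSS rose by 4.81 ± 0.34, 5.72 ± 0.32, 5.96 ± 0.27 and 4.86 ± 0.28. The largest adjusted p among these 12 values was that of Ccl3 in HP1a WT (5.20e-05). At the upstream Ccl5 TSS, the widest of the member peaks, the rises were 5.13 ± 0.28, 4.86 ± 0.26, 5.34 ± 0.29 and 4.86 ± 0.32. The Xcl1 TSS rose by 2.78 ± 0.25, 2.59 ± 0.23, 3.81 ± 0.25 and 3.06 ± 0.30. In bulk cells, a greater share of cells with an open site and a site more open in each cell cannot be told apart.

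Among the distal CC chemokine peaks, the smallest rise was at the Ccl3 peak 9.1 kb downstream, from 1.5 ± 0.31 in HP1a WT to 2.2 ± 0.34 in HP1g KO. This peak held 5.74 to 11.2 CPM in naive libraries. It was also the peak of these 17 that was most open before transfer, as the plot of naive values shows. The Ccl3 peak 5.4 kb upstream held 0 reads in all 3 HP1g WT naive libraries and 0.346, 0.566 and 0.721 CPM in the Tconv libraries, at least 13.2-fold higher against a floor of 3 counts per library. With that peak at its bound the HP1g WT median was 5.28, and without it the other 16 rose by 2.07 to 6.77.

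**Figure D2:**
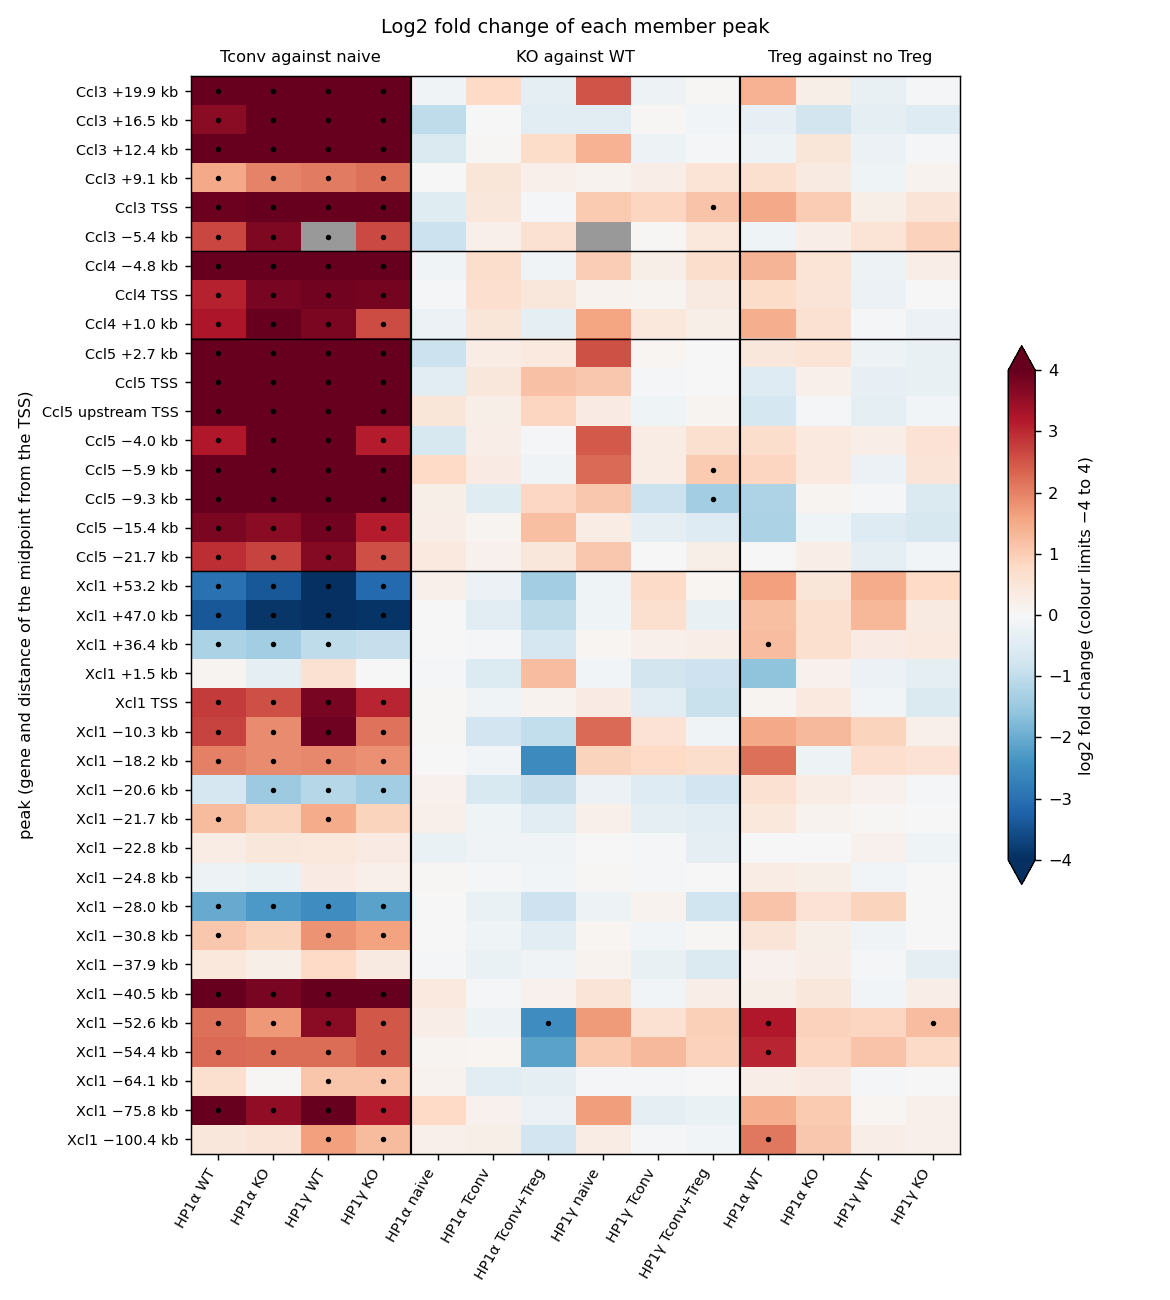
Log2 fold changes of the 37 member peaks (rows) in the comparisons of each line (columns), from edgeR. The Ccl3, Ccl4 and Ccl5 rows are positive in all 4 comparisons of Tconv with naive cells, while the Xcl1 rows take both signs, and the grey cells belong to the Ccl3 peak 5.4 kb upstream, with 0 reads in HP1g WT naive cells.

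Xcl1 did not move as 1 block. Over the 4 comparisons, 7 of its 20 peaks were called higher in all 4, 3 were called lower in all 4, 4 were called in none and 6 were called in some. In single comparisons 22.4% to 24.9% of all peaks were called higher and 17.5% to 22.0% lower. The share of all peaks called alike in all 4 was not counted, so these counts have no background beside them. The 7 that rose were the TSS and the peaks 10.3, 18.2, 40.5, 52.6, 54.4 and 75.8 kb upstream. The 3 that fell were those 53.2 and 47.0 kb downstream, on the far side of the gene, and the one 28.0 kb upstream. These 3 were open in naive cells: the peak 53.2 kb downstream held 18.3, 17.9 and 17.1 CPM in HP1a WT naive cells and 2.05, 2.43 and 2.42 in Tconv. In HP1g WT cells it held 20.7, 22.1 and 21.8 and 1.52, 0.821 and 1.26. The range of its fall over the 4 comparisons was -4.08 to -2.98, against -4.71 to -3.40 at the peak 47.0 kb downstream and -2.47 to -2.02 at the peak 28.0 kb upstream. Every naive library lay above every Tconv library at all 3 peaks, which were picked by their calls here.

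The peak 40.5 kb upstream showed the opposite pattern. It held 1.10, 1.17 and 0.867 CPM in HP1g WT naive cells and 20.3, 31.3 and 30.7 in Tconv, a log2 fold change of 4.78 ± 0.31, and over the 4 comparisons its rise ran from 3.81 to 4.78. The peak 75.8 kb upstream, near closed in naive cells at 0.154, 0.0271 and 0.110 CPM, reached 2.58, 4.11 and 3.94 in HP1g WT Tconv. Its rise was 3.15 to 5.22. Peaks assigned to Xcl1 by distance alone may serve other genes, which was not tested.

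**Figure D3:**
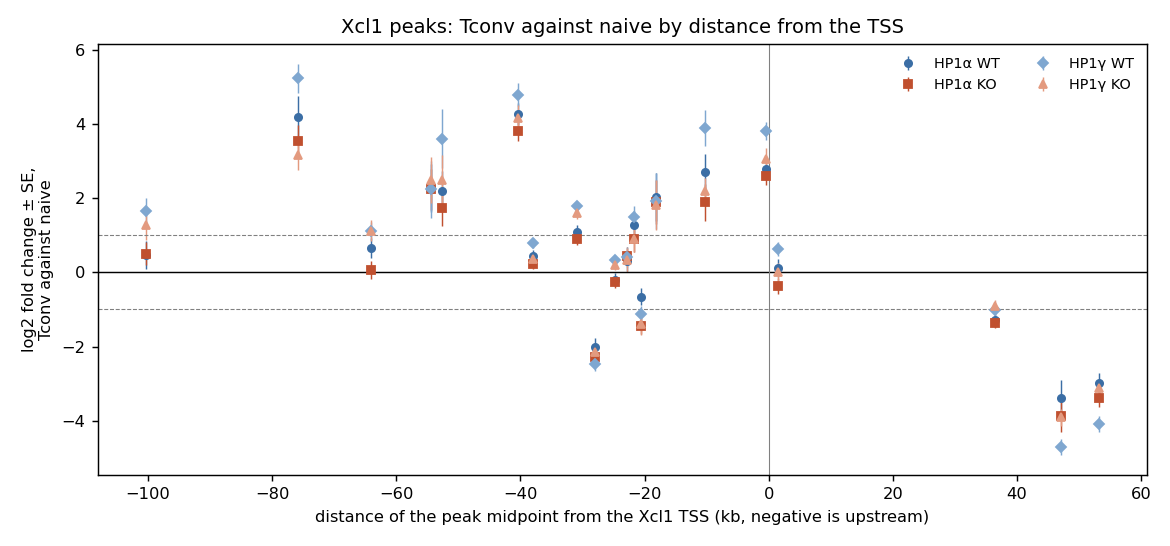
Log2 fold change of Tconv against naive cells at the 20 Xcl1 peaks by distance of the peak's midpoint from the TSS (kb), for both lines and genotypes. The peaks 53.2 and 47.0 kb downstream and 28.0 kb upstream lie below -2 in all 4 comparisons, and the TSS and 6 upstream peaks lie above 1 in all 4.

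Whether transfer changed the genes differently in KO and WT cells was tested as an interaction. In the HP1a line 0 of 37 peaks were called by edgeR (1 at an unadjusted p under 0.05, where 1.8% of all peaks were, and 0 by DESeq2), with 0% of all peaks called. For HP1g 0 were called by edgeR (7 at an unadjusted p under 0.05, of which 1 was positive and where 9.51% of all peaks were, and 5 by DESeq2), with 0.014% of all peaks called by edgeR and 1.93% by DESeq2. The smallest adjusted p there was 0.447, at the Xcl1 peak 75.8 kb upstream (-2.07 ± 0.83). The median over the 17 CC chemokine peaks was 0.73 in the HP1a line, against -0.02 over all peaks. It was -1.10 in the HP1g line, and -1.10 without the peak that had no reads, against -0.03 over all peaks, so the medians of the 2 lines had opposite signs.

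The next comparison was between genotypes before transfer. In HP1g naive cells, 0 of 37 peaks were called between KO and WT by edgeR (4 at an unadjusted p under 0.05, all higher in KO, where 8.98% of all peaks were in either direction, and 9 by DESeq2), with 0.14% of all peaks called by edgeR. The smallest adjusted p was 0.231, at the Xcl1 peak 10.3 kb upstream (2.27 ± 0.68). Of the 17 CC chemokine peaks, 16 had a log2 fold change above 0, with a median of 1.07, where the median over all peaks was 0.03 and that of the Xcl1 peaks 0.11. Without the Ccl3 peak 5.4 kb upstream, which had 0 WT reads, 15 of 16 were above 0 and the median was 1.07.

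The libraries of the KO group were not alike. Summed over the 17 peaks, KO replicates 1, 2 and 3 held 32.6, 33.0 and 22.3 CPM, and the WT libraries 23.7, 19.7 and 19.5. KO replicates 1 and 2, the 2 shallower ones, stood above the WT libraries and replicate 3 within their range. At the Ccl5 peak 5.9 kb upstream the KO libraries held 1.17, 1.27 and 0.218 CPM and the WT libraries 0.278, 0.176 and 0. At the Ccl3 peak 19.9 kb downstream the KO libraries held 1.17, 1.24 and 0.164 and the WT libraries 0.201, 0.0407 and 0.110. Both peaks show the same division between replicates 1 and 2 on one side and replicate 3 on the other. The part of depth in this was not tested. All 3 KO libraries stood above all 3 WT libraries at 9 of the 37 peaks and below them at 1, where 14.1% of all peaks were above and 14.0% below in this way. At the Ccl5 TSS, 1 of those 9, the difference was 1.06 ± 0.60 with an adjusted p of 0.639. The call depended on the method: 9 peaks passed in DESeq2 (3.27% of all peaks), 4 when only the 2 groups compared were fitted (1.59% of all peaks) and 2 under the earlier edgeR quasi-likelihood method (0.583% of all peaks). Markers of other cells also separated these groups without overlap. The Treg marker Ikzf2 held 47.5 to 56.8 CPM in WT and 67.0 to 78.8 in KO libraries, while Foxp3, the defining marker, overlapped (120.0 to 125 and 114 to 128). The 3 of 5 myeloid markers with a peak summed to 31.3 to 31.8 CPM in WT and 25.4 to 26.8 in KO, and each of them was lower in KO. The part of these cells in the chemokine values was not tested. In HP1a naive cells edgeR called 0 of 37 (0 at an unadjusted p under 0.05, where 1.17% of all peaks were, and 0 by DESeq2), with 0.00559% of all peaks called, and the CC chemokine median was -0.16.

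**Figure D4:**
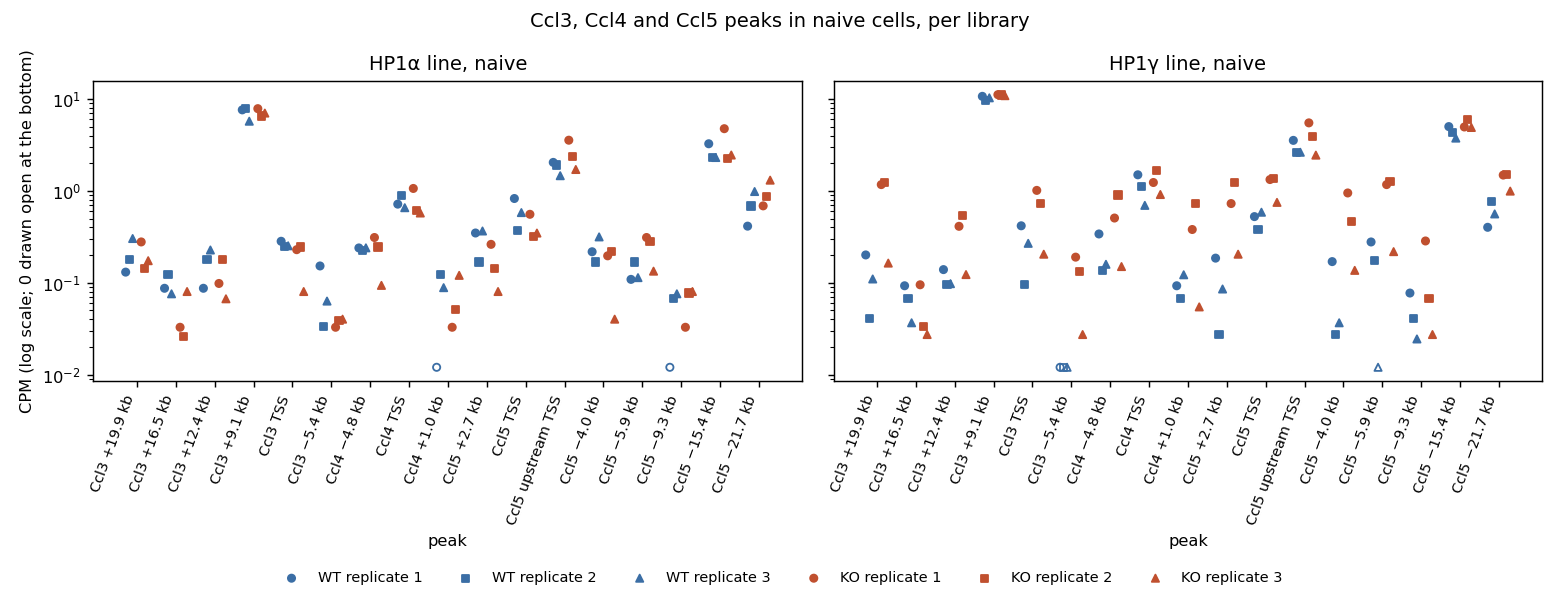
CPM (log axis) of the 17 Ccl3, Ccl4 and Ccl5 peaks in each naive library, HP1a line on the left and HP1g line on the right, with libraries without reads drawn open at the bottom. In the HP1g line KO replicates 1 and 2 lie above the WT libraries at many peaks, such as the Ccl5 peak 5.9 kb upstream at 1.17 and 1.27 CPM, while replicate 3, at 0.218 CPM there, lies among them.

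In Tconv transferred without Treg, no member peak passed between genotypes. Among HP1a Tconv 0 of 37 were called by edgeR (5 at an unadjusted p under 0.05, where 4.82% of all peaks were, and 0 by DESeq2), with 0.021% of all peaks called. Without KO Tconv replicate 1, 1 was called, with 0.475% of all peaks. The log2 fold changes at the TSS peaks were 0.45 ± 0.39 for Ccl3, 0.66 ± 0.30 for Ccl4, 0.45 ± 0.21 for Ccl5 and -0.16 ± 0.20 for Xcl1. Among HP1g Tconv 0 of 37 were called by edgeR (9 at an unadjusted p under 0.05, a share near the 19.6% of all peaks there, and 0 by DESeq2), with 3.35% of all peaks called. Without WT Tconv replicate 3, 1 was called (5.3% of all peaks), and 1 without KO Tconv replicate 1 (4.85%). The smallest adjusted p was 0.0503, at the intronic Xcl1 peak 1.5 kb downstream (-0.73 ± 0.21). At the Ccl3 TSS the difference was 0.86 ± 0.32 (adjusted p = 0.128) and at the Xcl1 TSS -0.43 ± 0.17 (adjusted p = 0.161). The Ccl4 and Ccl5 TSS peaks lay at 0.10 ± 0.26 and -0.03 ± 0.15. Some markers of other cells separated the genotypes of Tconv without overlap. The myeloid markers summed to 24.7 to 28.8 CPM in HP1a WT and 30.7 to 33.1 in HP1a KO. The Cd8b1 peak held 2.66 to 4.34 CPM in HP1g WT and 4.83 to 5.62 in HP1g KO. The B cell and Treg markers overlapped in both lines, and the part of other cells was not tested.

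With Treg, HP1g KO cells differed from WT cells at 3 member peaks, all on chromosome 11. The Ccl3 TSS and the Ccl5 peak 5.9 kb upstream were higher in KO cells and the Ccl5 peak 9.3 kb upstream was lower. These 3 of 37 (8.11%) compare with 11.9% of all peaks called, 6.48% higher and 5.38% lower, so the share was not above the background. The Ccl3 TSS held 7.88, 7.57 and 3.47 CPM in WT and 20.8, 8.62 and 15.4 in KO cells, without overlap, a log2 fold change of 1.13 ± 0.31 (adjusted p = 0.0167). Ccl3 is on a gene list that the study chose partly on these libraries, so its direction is not independent evidence. The Ccl5 peak 5.9 kb upstream held 10.7, 10.8 and 8.09 in WT and 27.9, 13.2 and 21.4 in KO cells, also without overlap (1.04 ± 0.30, adjusted p = 0.0216). At the Ccl5 peak 9.3 kb upstream, WT cells held 2.08, 4.33 and 1.48 and KO cells 0.562, 1.02 and 1.89, with KO replicate 3 above WT replicate 3 (-1.38 ± 0.34, adjusted p = 0.00710). These 2 Ccl5 peaks are neighbours and moved in opposite directions.

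These 3 calls rested on single libraries. Without KO replicate 1, 0 peaks were called, with 5.2% of all peaks called, and the log2 fold changes were 0.78 at the Ccl3 TSS (adjusted p = 0.128), 0.74 at the Ccl5 peak 5.9 kb upstream (adjusted p = 0.148) and -1.0 at that 9.3 kb upstream (adjusted p = 0.0684). Without WT replicate 2, 0 were called, with 5.21% of all peaks called, at 1.2 (0.0623), 1.08 (0.0791) and -0.84 (0.145) in the same order, as adjusted p in parentheses. Without WT replicate 3, 2 were called, with 10.9% of all peaks, and the first 2 peaks fell to 0.95 (adjusted p = 0.0483) and 0.95 (adjusted p = 0.0543). Without WT replicate 1, 7 were called, with 13% of all peaks, and without KO replicate 2, 5, with 16.2% of all peaks. DESeq2 called 1, the Ccl3 TSS, with 12.3% of all peaks called. The earlier edgeR quasi-likelihood method called 0, with 7669 called among all peaks, and the fit of only the 2 groups 0, with 3656. With the replicate number as a block the same 3 were called, with 9058 among all peaks. The Pax5 peak, a B cell marker, held 4.03 to 8.43 CPM in the WT and 8.28 to 11 CPM in the KO libraries with Treg, and the Treg markers Foxp3 and Ikzf2 summed to 125.0 to 161 and 168 to 174 CPM, without overlap. The sort gated on CD4+ and Thy1.1- cells, but no purity is given for these libraries. Thy1.1 marks only the added Treg, so transferred cells that turned Foxp3+ stay in the gate. The paper reports more anergic (unresponsive) cells among HP1γ-deficient Tconv with Treg, and more Foxp3+ ones at higher Treg doses. The part of any of these cells in the differences was not tested.

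A further 5 peaks passed the adjusted p without the fold, all lower in KO cells. The Xcl1 TSS held 9.84, 10.4 and 6.28 CPM in WT and 4.90, 5.09 and 4.92 in KO cells, without overlap, at -0.89 ± 0.20 (adjusted p = 0.00484), the smallest adjusted p of the 37. The others were the Xcl1 peaks 1.5 kb downstream (-0.83 ± 0.25), 28.0 kb upstream (-0.79 ± 0.25) and 37.9 kb upstream (-0.59 ± 0.16), and the Ccl5 peak 15.4 kb upstream (-0.53 ± 0.17). That Ccl5 peak held 37.9, 56.2 and 28.1 CPM in WT and 28.5, 29.2 and 28.7 in KO cells, so the genotypes overlapped, and without WT replicate 2 it stood at -0.25 (adjusted p = 0.252). When each of the 6 libraries with Treg was left out in turn, the Xcl1 TSS passed every time. The Xcl1 peak 28.0 kb upstream was lost 4 times and the other 3 peaks 3 times each. Thus 8 of 37 passed the adjusted p alone, where 20.5% of all peaks did. The Ccl4 TSS (0.35 ± 0.28) and both Ccl5 TSS peaks (0.01 ± 0.16 and 0.11 ± 0.21) did not pass.

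In HP1a cells with Treg, 1 of 37 peaks was called between genotypes, the Xcl1 peak 52.6 kb upstream, lower in KO cells, with 1.63% of all peaks called and 1.42% called lower. It held 7.21 and 3.21 CPM in the 2 kept WT libraries, from 96 and 6 reads, and 1.18 in the kept KO library, from 63 reads. The libraries left out held 2.59 (WT), 2.90 and 2.41 (KO) CPM. Those 3 lie between the kept KO value and the lower kept WT value, and with them the genotypes overlap. The log2 fold change was -2.49 ± 0.46 (adjusted p = 0.00936), with the lone KO library assumed to vary like the other groups, which supply the spread. With all 18 libraries it was -1.78 ± 0.41 (adjusted p = 0.0356, with 0.741% of all peaks called). Without WT replicate 1, which leaves a single library of each genotype, it was -1.37. Its neighbour 54.4 kb upstream stood at -2.13 ± 0.54 (adjusted p = 0.0544). The value was -2.21 in DESeq2 (adjusted p = 0.0645), which called 1 other peak, the Xcl1 peak 53.2 kb downstream, with 3.87% of the 65957 peaks that had an adjusted p in DESeq2 called. At the TSS peaks the differences were -0.05 ± 0.57 for Ccl3, 0.44 ± 0.51 for Ccl4, 1.17 ± 0.42 for Ccl5 and 0.13 ± 0.38 for Xcl1, and none passed. The Pax5 peak, the 1 of 4 B cell markers with a peak, held 13.3 to 17.1 CPM in WT and 5.21 to 12.9 in KO libraries with Treg, and the myeloid markers summed to 17.1 to 19.8 and 25.1 to 27.7, both without overlap over all libraries. The sort gated on CD4+ cells, and its purity in these libraries is not given. The part of B and myeloid cells in the Xcl1 difference was not tested.

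The next comparison asked what Treg changed in transferred cells. In HP1a WT cells 4 of 37 peaks were called, all higher with Treg and all at Xcl1, with 6.77% of all peaks called and 4.92% higher. The peak 52.6 kb upstream went from 0.512, 1.35 and 0.853 CPM without to 7.21 and 3.21 with Treg, without overlap (3.20 ± 0.45, adjusted p = 0.000320). The peak 54.4 kb upstream went from 0.754, 1.43 and 1.99 to 9.31 and 2.14 (3.06 ± 0.54), the second of these values from 4 reads. The peak 100.4 kb upstream went from 0.767, 1.17 and 0.711 to 3.46 and 4.81 (2.09 ± 0.51), and that 36.4 kb downstream from 7.90, 6.51 and 5.83 to 17.6 and 12.8 (1.22 ± 0.26). All 4 were higher in each kept library with Treg than in each without, but they were picked by their call here. The share of all peaks ordered in this way was not counted. Leaving out WT with Treg replicate 1 leaves the library of 1.49 M reads alone, so only effect sizes are given for that fit. The log2 fold changes were then 2.10 and 1.05 at the peaks 52.6 and 54.4 kb upstream. They were 2.45 at that 100.4 kb upstream and 0.77 at that 36.4 kb downstream. Without WT Tconv replicate 2, 7 were called, with 8.11% of all peaks. The peak 100.4 kb upstream was lost without WT Tconv replicate 1 (1.75, adjusted p = 0.141). Without WT with Treg replicate 2, which leaves replicate 1 alone, its log2 fold change was 1.91. All 18 libraries gave 6 calls, with 7.79% of all peaks called. DESeq2 gave 7, with 9.7% of the 70116 peaks that had an adjusted p, and the fit with the replicate number as a block 9, with 10.2% of all peaks. The Pax5 peak held 4.55 to 6.29 CPM in these Tconv libraries and 13.3 to 17.1 CPM in those with Treg, and the Cd8b1 peak 3.18 to 8.67 and 5.18 to 10.5, with the library left out counted in. The 4 CD4 T cell markers summed to 358 to 439.7 CPM without and 197 to 287 with Treg, and the myeloid markers to 24.7 to 28.8 and 17.1 to 19.8, again without overlap. The sort gated on CD4+ cells, and no purity is given for these libraries. The part of other cells in the Xcl1 values was not tested.

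In HP1a KO cells 0 of 37 were called by edgeR (5 at an unadjusted p under 0.05, where 8.54% of all peaks were, and 0 by DESeq2), with 0.548% of all peaks called. Without KO Tconv replicate 2, 3 were called, with 0.498% of all peaks, and with all 18 libraries 1 was, the Xcl1 peak 100.4 kb upstream, with 1.45% of all peaks called. In HP1g WT cells 0 were called by edgeR (7 at an unadjusted p under 0.05, a share near the 20.3% of all peaks there, and 2 by DESeq2), with 0.137% of all peaks called by edgeR and 3.26% by DESeq2. There 1 was called without WT Tconv replicate 3 (1.21% of all peaks) or without WT with Treg replicate 2 (0.895%). In HP1g KO cells 1 was called higher, with 8.15% of all peaks called and 6.1% higher. It was again the Xcl1 peak 52.6 kb upstream, at 0.605, 3.05 and 1.27 CPM in Tconv and 4.63, 2.12 and 3.70 with Treg, where Tconv replicate 2 lay within the range of the libraries with Treg (1.23 ± 0.35, adjusted p = 0.0213). It was lost without Tconv replicate 1 (0.87, adjusted p = 0.120), without Tconv replicate 3 (1.10, adjusted p = 0.111) and without KO with Treg replicate 1 (0.92, adjusted p = 0.208). Without Tconv replicate 2, 3 peaks were called (9.44% of all peaks), and without KO with Treg replicate 2, 2 (13.1%). The Pax5 peak held 5.03 to 6.41 CPM in KO Tconv and 8.28 to 11 with Treg, and the Treg markers summed to 152 to 157 and 168 to 174. Both were without overlap. The sort gated on CD4+ and Thy1.1- cells, but its purity is not given and transferred cells that turned Foxp3+ would pass it. The part of such cells was not tested. In these cells the Ccl5 peak 15.4 kb upstream fell by 0.64 on the log2 scale with Treg, past the adjusted p (0.0129) but not the fold, and was lost for 2 of 6 libraries left out. By the adjusted p alone 2 of 37 passed there, where 14.0% of all peaks did.

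**Figure D5:**
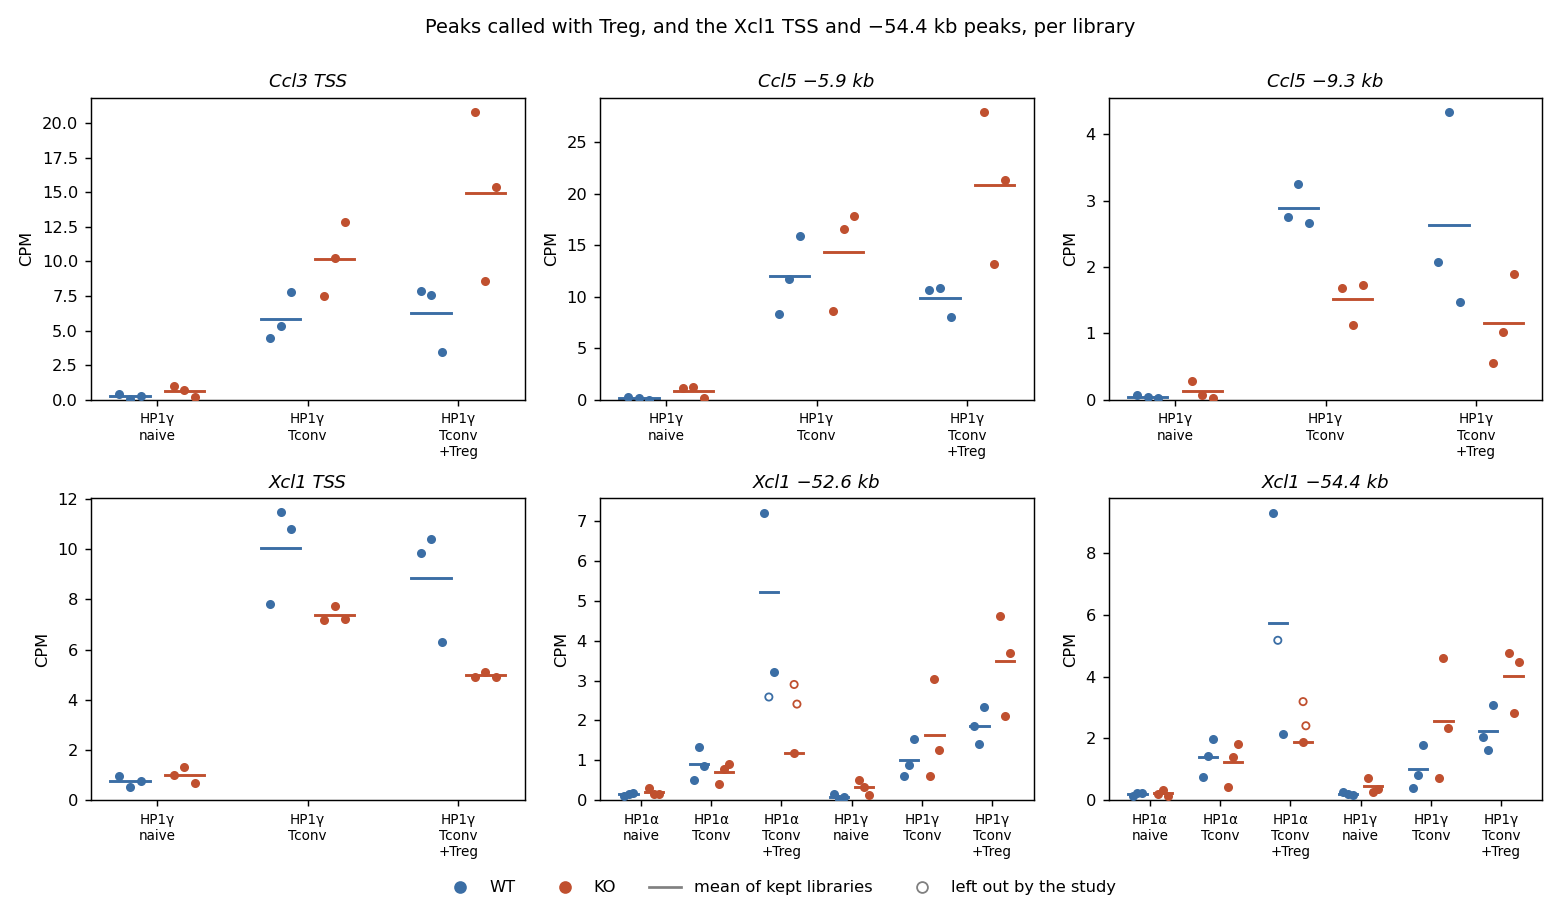
CPM per library, by group, at the Ccl3 TSS, the Ccl5 peaks 5.9 and 9.3 kb upstream, the Xcl1 TSS and the Xcl1 peaks 52.6 and 54.4 kb upstream. All but the Xcl1 TSS were called between genotypes or between conditions with and without Treg. The called Xcl1 peaks 100.4 kb upstream and 36.4 kb downstream are not drawn. The HP1g KO libraries with Treg lie above the WT libraries at the Ccl3 TSS (8.62 to 20.8 against 3.47 to 7.88 CPM), and the HP1a WT libraries with Treg lie above those without at the Xcl1 peak 52.6 kb upstream.

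Whether Treg acted differently on KO and WT cells was tested as the interaction of genotype and Treg. In the HP1a line 0 of 37 were called by edgeR (5 at an unadjusted p under 0.05, where 10.3% of all peaks were, and 0 by DESeq2), with 0.0461% of all peaks called, and the Xcl1 peak 52.6 kb upstream was at -2.29 ± 0.62 (adjusted p = 0.202). In the HP1g line 0 were called by edgeR (1 at an unadjusted p under 0.05, where 12.8% of all peaks were, and 0 by DESeq2), with 0.0014% of all peaks called. The Ccl3 TSS was at 0.27 ± 0.45 (adjusted p = 0.803) there and the Xcl1 TSS at -0.46 ± 0.26 (adjusted p = 0.448). So the genotype differences seen with Treg were not shown to differ from those without.

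Other genes of the chemokine system were counted over the same comparisons, with peaks assigned by nearest TSS. Other CC chemokine genes of chromosome 11 (Ccl1, Ccl2, Ccl6, Ccl7, Ccl8, Ccl9, Ccl11, Ccl12) had 21 peaks, at 4 of the 8 genes and 16 of them at Ccl1, a ligand of Ccr8 that is not adjacent to the members. From 19 to 20 of the 21 rose from naive cells to Tconv and none fell in the 4 comparisons, where 22.4% to 24.9% of all peaks rose. Between HP1g genotypes 5 were lower in KO Tconv (1.66% of all peaks called lower) and 8 in KO Tconv with Treg (5.38% of all peaks called lower), and none was higher. Their median was -0.75 without and -0.92 with Treg, where the Ccl3, Ccl4 and Ccl5 medians were 0.05 and 0.23 and the all-peak medians 0.02 and -0.02. The Ccl1 TSS peak fell by 1.26 on the log2 scale in HP1g KO Tconv (adjusted p = 0.00461). Treg lowered 4 of these peaks in HP1a WT, 2 in HP1a KO and 4 in HP1g KO cells, where 1.84%, 0.284% and 2.06% of all peaks were called lower. In HP1g naive cells the list had a median of 1.14 (16 of 21 above 0), beside 1.07 for Ccl3, Ccl4 and Ccl5.

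Of the other chemokine ligands (Cxcl9, Cxcl10, Cxcl11, Cxcl16, Ccl17, Ccl20, Ccl22), 4 of 7 had peaks, 10 in all. From 4 to 5 rose from naive cells to Tconv, where 22.4% to 24.9% of all peaks did, and 1 fell in HP1g KO, where 20.6% of all peaks did. In HP1g KO Tconv 3 were lower than in WT, with the Ccl17 TSS at -1.41 ± 0.28 and 1.66% of all peaks called lower. Treg lowered 1 in HP1g WT, the Ccl17 TSS (-1.68 ± 0.31), with 0.0699% of all peaks called lower, and 1 in HP1a WT, the Cxcl9 peak 0.5 kb downstream (-2.0 ± 0.49), with 1.84% called lower. The factors Tbx21, Eomes, Runx3 and Klf13, which are known to act at member genes in T or NK cells, had 100 peaks, of which 40 to 45 rose and 17 to 21 fell from naive cells to Tconv. Of all peaks 22.4% to 24.9% rose and 17.5% to 22.0% fell, so the falls were near the background. The Tbx21 peak 11.2 kb downstream had the smallest adjusted p of the rising ones, with rises from 6.06 to 7.79. Between HP1g genotypes with Treg 3 were higher (Eomes 120.7 kb upstream, 1.26 ± 0.37) and 10 lower (Klf13 83.9 kb upstream, -1.09 ± 0.23) in KO cells, against 6.48% and 5.38% of all peaks, and without Treg 1 was lower, against 1.66%. Treg raised 3 and lowered 3 in HP1g KO cells, with 6.1% of all peaks called higher and 2.06% lower. It raised 7 and lowered 10 in HP1a WT cells, with 4.92% and 1.84% of all peaks called in these directions. In HP1a cells with Treg 1 was higher and 1 lower in KO than in WT, against 0.218% and 1.42% of all peaks.

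Which genes have a TSS peak with a course most like the members' over the 12 group means was measured by Pearson's r of log2 CPM, among 12389 genes. These values are a description, since all groups share the division between naive and transferred cells. Closest to the Ccl3 TSS were Cd38 (r = 0.993), Clgn, Lancl3, Fbxl2 and Plek. The Ccl4 TSS was closest to Or12j3 (r = 0.993), Cysltr2, Cd80, Chit1 and Fbxl2. The Ccl5 TSS was most like Dhrs9 (r = 0.995), Gm49339 and Lilrb4b (which share 1 peak), Or12j3 and Emp1, and the upstream Ccl5 TSS most like Or12j3 (r = 0.996), Atg7, Dhrs9, Cxcr3 and Ifi211. For the Xcl1 TSS these were Lrrk1 (r = 0.990), Ifng (r = 0.985), Soat2, Cxcr3 and Map6. Ifng encodes interferon-γ and Cxcr3 a chemokine receptor of Th1 cells.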

How the data were processed

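The authors deposited 1 table of raw ATAC-seq read counts, not normalized, with a row per merged peak (36 libraries, 71512 intervals, 3 of them without width and left out, 0 per-sample columns unused). By the study's methods, reads were trimmed (Trim Galore 0.6.7), aligned to GRCm39 with BWA-MEM2, filtered on mapping quality and duplicates, peaks were called per sample with HMMRATAC and merged, and reads were counted with featureCounts 2.0.3, where a read may count for more than 1 peak. Near-identical sequence is thus limited by the mapping filter. Here edgeR 4.0.16 (R 4.3.3) was fitted per line over all groups: filterByExpr, TMM, estimateDisp, glmQLFit with legacy = FALSE, glmQLFTest, Benjamini-Hochberg over all peaks, two-sided. The SE is the absolute log2 fold change over the root of the F statistic. Biological variation was 26.6% (HP1a, 15 libraries) and 22.2% (HP1g, 18). No 2 libraries held identical values. In simulated counts with 200 peaks changed by a log2 fold change of 2, 76.0% were recovered for HP1g KO against WT with Treg (71501 peaks) and 27.5% for the HP1a comparison (71490 peaks), where 5 changed peaks also had the wrong sign (0 for HP1g). Alternatives were DESeq2 1.42.0, library size alone, loess offsets (span 0.3), no filter, only the groups compared, a replicate block, depth as covariate, leaving out libraries, all 18 HP1a libraries, the adjusted p alone, peaks within 10 kb and, chosen after seeing the data, edgeR's earlier quasi-likelihood method. Same-numbered libraries deviated together (all 3 correlations of deviations over 0.1) for HP1a naive KO and WT (0.247 to 0.5), HP1g KO and WT with Treg (0.147 to 0.323) and HP1g WT with and without Treg (0.202 to 0.286), the only source of pairing. Named peaks were those over each TSS and those called between genotypes or with Treg, and the smallest adjusted p per list and direction. The members and lists were chosen with earlier results of these data known. The counts for 1 list of chemokine receptors and 1 peak sequence are not reported here.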

Additional observations from a re-analysis of the deposited data

Results flagged for a closer look

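At the Xcl1 peak 53.2 kb downstream the naive libraries of the 2 genotypes were ordered in opposite ways in the 2 lines. In the HP1a line all 3 KO libraries (19.3 to 21.8 CPM, mean 20.2) lay above all 3 WT libraries (17.1 to 18.3 CPM, mean 17.7), a log2 ratio of means of 0.19. In the HP1g line all 3 KO libraries (16.8 to 19.6 CPM, mean 18.5) lay below all 3 WT libraries (20.7 to 22.1 CPM, mean 21.5), a log2 ratio of -0.22. The difference between the lines was not tested, and neither line's own comparison passed in edgeR. The peak was picked for this order. It was the 1 of 37 peaks with KO above WT in this way in HP1a naive cells, where 2.9% of all peaks were, and the 1 below in HP1g naive cells, where 14.0% were. In HP1a naive cells 1 other member lay below, where 3.63% of all peaks did.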

How the results depend on the processing

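Counts of member peaks called were recomputed under each alternative. From naive cells to Tconv they stayed within 1.5 times (26 to 33 without single libraries) except within 10 kb of a TSS, which leaves fewer peaks, at 13 in each of the 4 comparisons. HP1a KO against WT with Treg gave 2 with the replicate block (2.68% of all peaks called) and 0 with the depth covariate, with the earlier edgeR method, with only the groups compared and within 10 kb. HP1a WT with against without Treg gave 7 in DESeq2 (9.7% of the peaks with an adjusted p), 9 with the replicate block (10.2%) and 0 within 10 kb, and HP1a KO gave 2 with the block (1.2%) and 1 with all 18 libraries. HP1g KO against WT with Treg gave 1 in DESeq2, 0 with the earlier method and with only the groups compared, and 8 by the adjusted p alone. HP1g naive KO against WT gave 9 in DESeq2, 2 with the earlier method and 4 with only the groups compared. HP1g KO with against without Treg gave 0 in DESeq2 (4678 called among all peaks), with the earlier method (3356) and with only the groups compared (607). It gave 0 within 10 kb and 2 by the adjusted p alone. HP1g WT with against without Treg gave 1 with loess offsets (0.978%), 2 in DESeq2 and 2 with the earlier method (0.959%), and the HP1g interaction of genotype and activation 5 in DESeq2. The cause of these changes was not tested. Leaving out 1 library gave these ranges: HP1a Tconv between genotypes 0 to 1, with Treg 0 to 1, WT with against without Treg 0 to 7, KO 0 to 3, HP1a activation 28 to 30 in WT and 29 to 30 in KO; HP1g Tconv between genotypes 0 to 1, with Treg 0 to 7, WT with against without Treg 0 to 1, KO 0 to 3, activation 30 to 33 in WT and 26 to 31 in KO, and 0 for the rest. Where the replicate numbers pair libraries, the block changed no count (0, 3 and 0). No named peak changed direction. Library size alone moved the median of all peaks by up to 0.20 (log2), in HP1a WT activation, and DESeq2 by -0.10 in HP1a WT with against without Treg. The depth covariate moved it by -0.15 there, with 1731 peaks called in place of 4839, and by 0.16 in HP1a KO against WT with Treg, with 41 in place of 1168. Depth limits the HP1a groups with Treg, where 1 WT library held 1.49 M reads and 1 KO library stood alone.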
